A study of Mus musculus with 6 samples.

Results

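The endoplasmic reticulum (ER) chaperones, the ER-associated degradation machinery and the genes of the integrated stress response were described in the cerebella of mice without Galnt17. The set was a fixed list of 35 genes, found by symbol among the 55487 genes counted, and all 35 passed the filter on low counts that left 18237 genes to test. They were read by role, as 16 ER chaperones and folding enzymes, 5 stress sensors and transcription factors, 7 degradation genes and 7 targets of the transcription factor ATF4. The chaperone and degradation genes together are called the ATF6 and XBP1 side below, after the factors that induce most of them.

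RNA came from whole cerebella of male mice at postnatal day 14, 1 animal per library, with 3 homozygous Galnt17 knockout animals (KO, strain label Wbscr17KOKO) and 3 wild types of the B6C3 stock (WT). Galnt17, also named Wbscr17, encodes a Golgi enzyme of the family that starts mucin-type O-glycosylation. The KO carries a deletion allele of the Knockout Mouse Project that began on C57BL/6J. Homozygotes on C57BL/6 did not survive to birth, per the labels, so live ones came from crosses to hybrids of C57BL/6J and C3H/He. The labels give no litters, and do not say how far KO and WT animals share background alleles. The design gives 1 comparison, which asks how cerebellar transcripts differed between KO and WT animals.

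Proteins that enter the secretory pathway fold in the ER with the help of chaperones such as BiP (the product of Hspa5) and of protein disulphide isomerases. When unfolded proteins build up, 3 sensors of the ER membrane respond: ATF6 and the kinase IRE1 (the product of Ern1), which activate chaperone and degradation genes through cleaved ATF6 and spliced XBP1, and the kinase PERK (the product of Eif2ak3), which phosphorylates eIF2alpha. Phosphorylated eIF2alpha slows translation in general but favours translation of ATF4, which induces amino acid and stress genes, and other kinases feed into that same step. Counts of reads per gene hold neither XBP1 splicing, nor ATF6 cleavage, nor eIF2alpha phosphorylation, so only transcript levels are described.

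The sequences that tie these genes to their inducing factors lie near their starts. The classical ER stress element (ERSE), bound by ATF6 or XBP1 together with NF-Y, reads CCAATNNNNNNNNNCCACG. Promoter sequences were taken from RefSeq (GRCm38.p6), and the 250 bases before each start were searched on both strands. In all, 31 of the 35 genes had an entry, and Manf, Hyou1, Atf6 and Derl1 had none. An exact ERSE was found for 9 of the 31 genes, namely Hspa5, Hsp90b1, Calr, Canx, Pdia6, Creld2, Dnajc3, Syvn1 and Derl3. Counted by window, 9 of their 35 windows held it, against 0.113% of all 32851 promoter windows. All 9 are on the ATF6 and XBP1 side, whose chaperone genes were listed as targets of these factors, so this share is a description only. The elements of 6 chaperone genes are shown with 5 bases on each side, in the direction of the element, with both fixed parts of the element in capitals.
Hspa5, chr2:34772020-34772048, plus strand: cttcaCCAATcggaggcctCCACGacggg
Hsp90b1, chr10:86705528-86705556, plus strand: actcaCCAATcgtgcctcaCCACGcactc
Calr, chr8:84847070-84847098, plus strand: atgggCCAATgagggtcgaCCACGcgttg
Canx, chr11:50325795-50325823, minus strand: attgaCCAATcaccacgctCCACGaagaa
Pdia6, chr12:17266486-17266514, plus strand: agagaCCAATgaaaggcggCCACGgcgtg
Dnajc3, chr14:118937822-118937850, plus strand: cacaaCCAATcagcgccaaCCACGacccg

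The genes for the disulphide isomerases whose transcripts fell in KO, Pdia4 and Pdia3, had no exact ERSE in the window, but each had a site that differs from it in 1 letter, as did Derl2, Sel1l and Ddit3. Such sites occurred in 1.32% of all windows when exact sites were counted with them. They are shown for Pdia4 and Pdia3 and for Derl2, whose fitted fold change was above 0 without passing the test, with both parts as found in capitals.
Pdia4, chr6:47813597-47813625, plus strand: gaccaCCAATcacgggctgCCACTcggtt
Pdia3, chr2:121413868-121413896, plus strand: cgcagCCAATcggcggctgCCACActgcg
Derl2, chr11:71019466-71019494, plus strand: gtccgCCAATccctgccggCCACAgctag

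On the ATF4 side the composite element of ATF4 and C/EBP factors, TGATGNAA, was found for Chac1 and Asns, and among the other genes for Herpud1 and Txndc5. It occurred in 3.45% of all windows. Herpud1 also held the related ERSE-II, ATTGGNCCACG, found in 0.0304% of windows. The elements of Chac1 and Asns and the ERSE-II of Herpud1 are shown with 5 flanking bases on each side.
Chac1, chr2:119351044-119351061, minus strand: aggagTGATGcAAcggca
Asns, chr6:7693220-7693237, minus strand: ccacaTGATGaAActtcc
Herpud1, chr8:94386372-94386392, plus strand: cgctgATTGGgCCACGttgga

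Longer windows put the elements in context for Pdia4, the gene with the lowest adjusted p, and for Hsp90b1, which has the most ERSE sites. They run in the direction of the gene and leave out annotated exons, and the parts are in capitals as for the sites above. Sites on the other strand therefore read as the reverse complement, with ATTGG last. The sites printed for Hspa5, Pdia3, Derl2 and Asns lie before the RefSeq start but inside the gene span of GENCODE, which begins further upstream. A match in these letters is a description, not evidence of binding in these animals.
Pdia4, chr6:47813513-47813762, minus strand: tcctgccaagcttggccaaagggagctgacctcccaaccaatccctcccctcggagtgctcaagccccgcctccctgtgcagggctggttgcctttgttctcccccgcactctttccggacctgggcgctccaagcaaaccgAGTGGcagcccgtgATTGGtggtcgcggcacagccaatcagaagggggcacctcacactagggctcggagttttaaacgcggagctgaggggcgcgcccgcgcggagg
Hsp90b1, chr10:86705510-86705694, minus strand: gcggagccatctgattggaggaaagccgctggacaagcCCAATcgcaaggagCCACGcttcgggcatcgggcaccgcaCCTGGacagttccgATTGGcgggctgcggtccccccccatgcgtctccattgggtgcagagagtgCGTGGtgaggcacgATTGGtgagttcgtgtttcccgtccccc

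**Figure D1:**
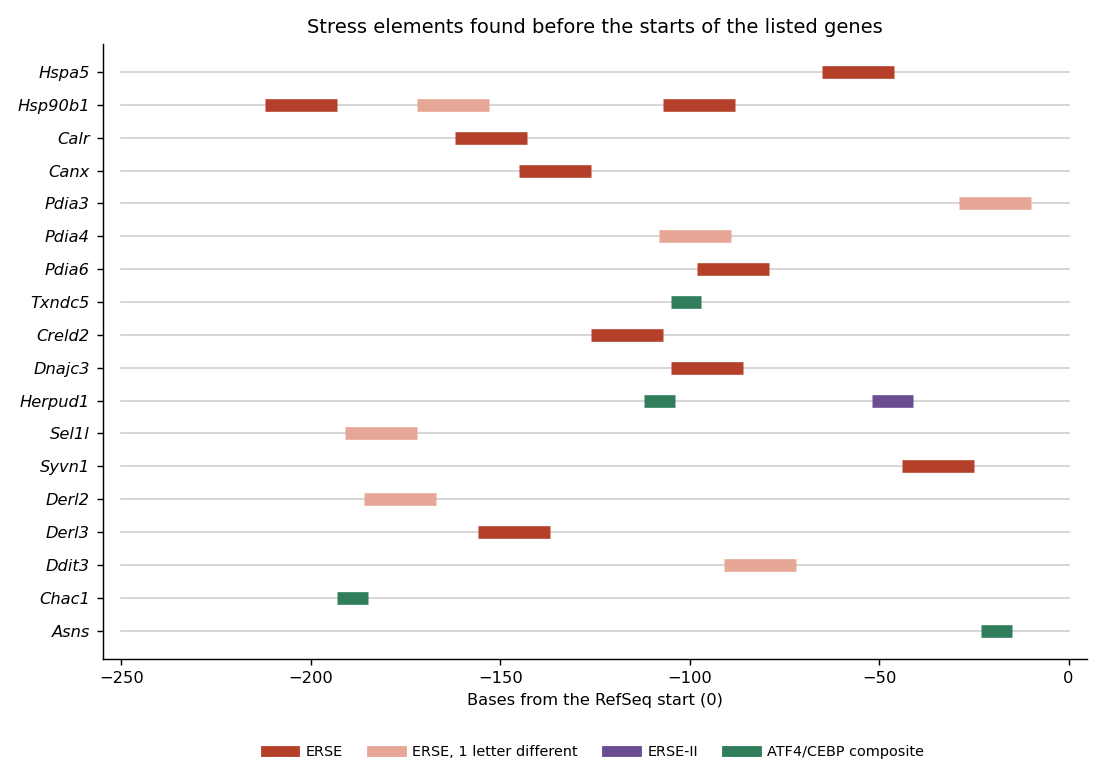
Positions of stress elements in the 250 bases before the RefSeq start (x axis, bases, with the start at 0) for the listed genes that hold any of them in any of their windows. Red bars are exact ERSE sites, pale bars ERSE sites with 1 letter different, purple ERSE-II and green the ATF4/CEBP composite element; the exact ERSE sites lie in chaperone and degradation genes.

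Reads counted in genes totalled 20049223 to 29840046 per KO library and 17111611 to 24120704 per WT library. Galnt17 was at 2.41, 3.44 and 3.13 CPM in KO animals 1, 2 and 3, against 46.3, 42.8 and 46.8 CPM in WT animals 1, 2 and 3, which fits the labels. CPM are read counts scaled to a common library size with TMM factors. All 8 granule cell markers and all 7 Purkinje cell markers of the cerebellum were present in every library. Unmapped reads took 13.8% to 17.2% of reads in KO and 6.52% to 10.03% in WT libraries, so the groups did not overlap in this measure. Nor did they in multimapping reads (3.72% to 3.90% in KO, 4.09% to 4.29% in WT) or ambiguous reads (3.95% to 4.07% in KO, 4.35% to 4.44% in WT). The leading numbers of the sample titles form separate runs for KO and WT, and the labels do not say what they number. If they mark library or sequencing batches, batch and genotype cannot be told apart in any comparison here. WT animal 1 stood apart from the other animals in base composition. Over 10680 genes, GC content and a library's log ratio to the average of all 6 had a Spearman rho of -0.35 there. The rho was 0.18 and 0.15 in WT animals 2 and 3, and -0.07, -0.0021 and -0.0051 in KO animals 1, 2 and 3. WT animals 2 and 3 thus lay above every KO animal in this measure. The weight of WT animal 1 in the results is given where it matters. In RNA from whole tissue, fewer cells of a type and less RNA per cell cannot be told apart.

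Among the ER chaperones and folding enzymes, 2 of 16 genes fell in KO and 0 rose, by the quasi-likelihood test of edgeR, Benjamini-Hochberg adjusted over all genes tested. Both were protein disulphide isomerase genes, Pdia4 and Pdia3. Over all genes tested, 0.872% were called lower and 0.784% higher, 1.66% in all. The fitted fold change was below 0 for 15 of the 16 genes, where 51.5% of all genes tested were below 0. The median log2 fold change was -0.18, against -0.01 over all genes tested. In 11 of the 16 every KO animal lay below every WT animal, where the background for such separation downwards was 12.2% of all genes tested. Together the 16 genes summed to 2083, 1992 and 2025 CPM in KO animals 1, 2 and 3, against 2220, 2390 and 2510 CPM in WT animals 1, 2 and 3, so the KO mean was 85.7% of the WT mean.

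Pdia4 encodes a disulphide isomerase with several thioredoxin-like domains (chromosome 6, 47796141 to 47813430, minus strand, GRCm38). It was at 43.1, 37.95 and 39.2 CPM in KO animals 1, 2 and 3, against 49.5, 54.9 and 58.0 CPM in WT animals 1, 2 and 3. The groups did not overlap, and the lowest WT value was that of animal 1. Its log2 fold change was -0.43 (SE 0.07, 95% interval -0.60 to -0.26, adjusted p = 0.0215), and the fitted WT level was 1.35 times the KO level. Pdia3, the isomerase that works with calnexin and calreticulin on glycoproteins (chromosome 2, 121413775 to 121438687, plus strand), was at 221, 215 and 216 CPM in the KO animals, against 254, 273 and 276 CPM in the WT animals. The KO animals lay close together and all below the lowest WT animal. The log2 fold change was -0.30 (SE 0.05, 95% interval -0.42 to -0.18, adjusted p = 0.0238). Both calls depended on single animals. Leaving out WT animal 2 gave an adjusted p of 0.0967 for each gene. Without KO animal 2 or 3 the adjusted p was 0.139 or 0.111 for Pdia4 and 0.175 or 0.132 for Pdia3, and without KO animal 1 it was 0.114 for Pdia3. The log2 fold change stayed between -0.49 and -0.37 for Pdia4 and between -0.34 and -0.28 for Pdia3 in these fits. DESeq2 and limma-voom called both genes too.

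Hspa5, Hsp90b1 and Calr, which with Pdia3 and Canx had the highest CPM of the chaperone genes, did not pass the threshold. Hspa5, which encodes BiP, the main Hsp70 of the ER and the protein that holds the sensors inactive, was at 283, 264 and 280.4 CPM in KO, against 317, 323 and 359 CPM in WT. Hsp90b1, the Hsp90 of the ER, was at 200.2, 200.6 and 205 CPM in KO, against 227, 236 and 258 CPM in WT. Calr, which encodes the lectin chaperone calreticulin, was at 381, 355 and 359 CPM in KO, against 398, 476 and 458 CPM in WT. In all 3 genes the groups did not overlap, and WT animal 1 was the lowest WT animal. Their log2 fold changes were -0.27 (SE 0.06), -0.25 (SE 0.06) and -0.28 (SE 0.07), with adjusted p values of 0.0656, 0.0686 and 0.0896. DESeq2 put all 3 past the threshold (adjusted p = 0.00510, 0.0116 and 0.00915), as did the edgeR fit without WT animal 1 (0.0128, 0.00839 and 0.00435), and their adjusted p reached 0.315, 0.292 and 0.355 without KO animal 2. Canx, the membrane-bound relative of calreticulin, was at 299.8 ± 12.9 CPM in KO and 338 ± 40.8 CPM in WT (SD, n = 3 each). Its groups overlapped (adjusted p = 0.313, and 0.0463 without WT animal 1). With 1 other animal left out, its adjusted p reached 0.629.

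**Figure D2:**
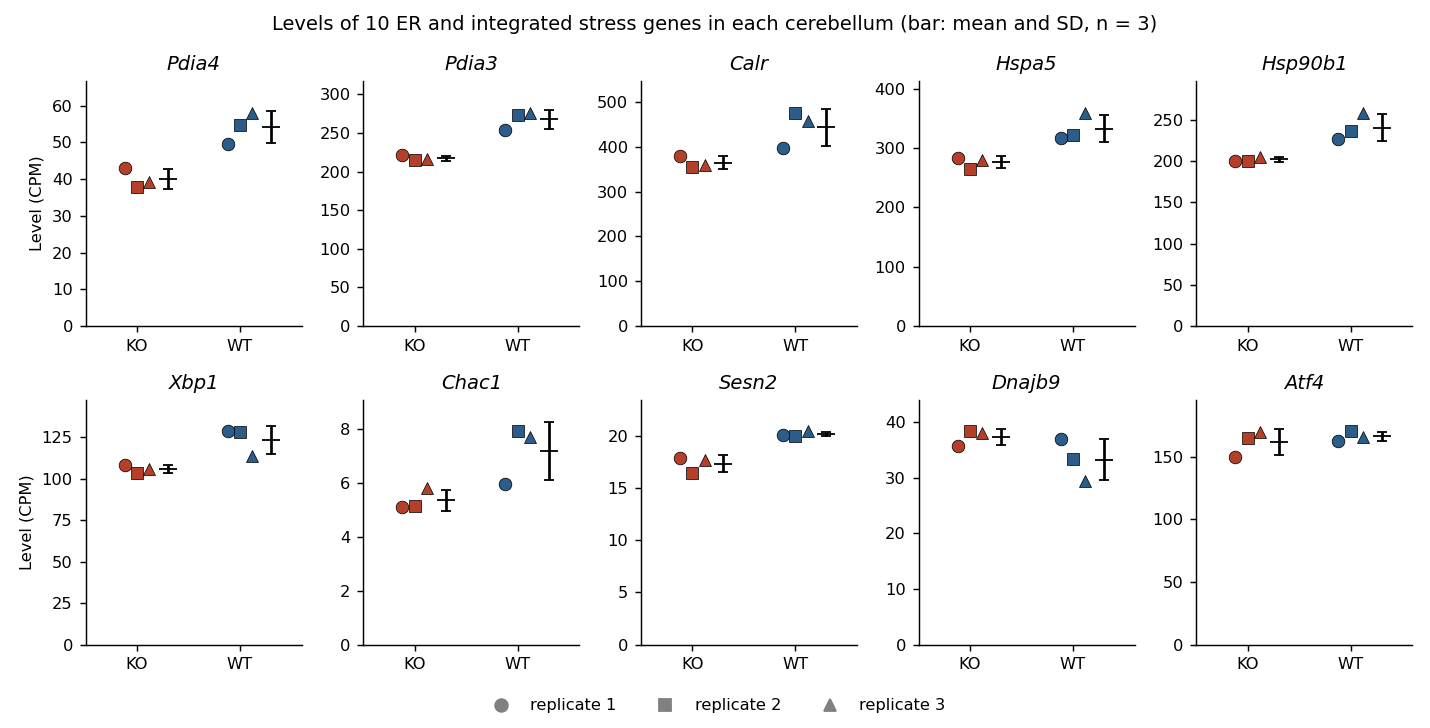
Levels (y axis, CPM, from 0) of 10 genes in each of the 3 KO animals (red, left) and 3 WT animals (blue, right), with symbols for the replicate number and black bars for mean and SD. In the panels of Pdia4, Pdia3, Calr, Hspa5, Hsp90b1, Xbp1, Chac1 and Sesn2 the KO animals all lie below the WT animals, while in those of Dnajb9 and Atf4 the groups overlap.

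The other oxidative folding genes did not pass the threshold with all animals. Pdia6, an isomerase that also dampens the sensors, was at 98.4, 91.4 and 97.3 CPM in KO animals 1, 2 and 3, against 102.4, 108 and 118 CPM in WT animals 1, 2 and 3. P4hb, the classical disulphide isomerase, was at 148, 143 and 137 CPM in KO, against 149, 166 and 168 CPM in WT. In both the groups were apart by a narrow margin at WT animal 1 (adjusted p = 0.165 and 0.176, and 0.0294 and 0.0182 without that animal). With 1 other animal left out, the adjusted p reached 0.476 for Pdia6 and 0.469 for P4hb. Txndc5, an isomerase with thioredoxin domains, was at 57.3, 60.9 and 55.3 CPM in KO, against 60.1, 64.8 and 67.5 CPM in WT, and here KO animal 2 exceeded WT animal 1 (adjusted p = 0.259).

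Nor did the genes of small luminal partners and secreted stress proteins. Sdf2l1, a BiP partner of the luminal chaperone complex, was at 13.4, 11.5 and 11.1 CPM in KO, against 14.0, 16.0 and 15.1 CPM in WT (log2 fold change -0.32, SE 0.11, adjusted p = 0.167). Manf, a BiP cofactor that is secreted on ER stress, was at 53.6, 48.2 and 51.8 CPM in KO, against 59.6, 62.3 and 55.0 CPM in WT (adjusted p = 0.153). Neither group pair overlapped, and WT animal 3, not animal 1, was the lowest WT animal for Manf. Creld2, a secreted cysteine-rich stress protein gene, averaged 23.0 ± 1.29 CPM in KO and 25.6 ± 0.886 CPM in WT (SD, n = 3 each), also without overlap (adjusted p = 0.317). Hyou1, the large Hsp70-like nucleotide exchange factor of BiP, averaged 70.7 ± 1.252 CPM in KO and 77.0 ± 8.84 CPM in WT (adjusted p = 0.421), with WT animal 3 alone well above the rest at 87.2 CPM.

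Of the J-domain co-chaperones of BiP, 0 passed the test in edgeR, DESeq2 or limma-voom. Dnajb11, which binds unfolded substrates, was at 70.5, 67.7 and 68.2 CPM in KO, against 73.8, 76.4 and 74.1 CPM in WT, with the groups apart (log2 fold change -0.12, SE 0.05, adjusted p = 0.256). Dnajc3 averaged 74.1 ± 2.58 CPM in KO and 77.4 ± 2.91 CPM in WT (SD, n = 3 each), with overlap (adjusted p = 0.573). Dnajb9, which delivers misfolded proteins to degradation and represses IRE1, was the only chaperone gene with a fitted value above 0. It averaged 37.3 ± 1.46 CPM in KO and 33.3 ± 3.74 CPM in WT (log2 fold change 0.16, SE 0.08, adjusted p = 0.343). WT animal 1 lay among the KO animals, and without that animal the log2 fold change was 0.25 (adjusted p = 0.0607). Without KO animal 2 it was 0.14 (adjusted p = 0.617).

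Of the 5 sensors and transcription factors 0 passed in edgeR, DESeq2 or limma-voom. In edgeR 1 had an unadjusted p below 0.05, namely Xbp1, which encodes the factor activated by IRE1. It was at 108, 103 and 106 CPM in KO, against 128, 128 and 114 CPM in WT, with the groups apart and WT animal 3 the lowest WT animal. Its log2 fold change was -0.22 (SE 0.06, 95% interval -0.36 to -0.09, adjusted p = 0.103). It passed without WT animal 3 (adjusted p = 0.0250), while without KO animal 2 its adjusted p was 0.370. Transcripts of the sensors themselves did not pass the test. Atf6 was at 55.7, 58.3 and 55.0 CPM in KO, against 54.9, 54.5 and 56.4 CPM in WT. Ern1 was at 22.1, 21.9 and 21.6 CPM in KO, against 22.2, 21.5 and 19.8 CPM in WT. Eif2ak3 was at 33.9, 32.1 and 31.8 CPM in KO, against 32.8, 33.4 and 35.7 CPM in WT. The groups overlapped in all 3, and the 95% intervals of their log2 fold changes ran from -0.09 to 0.14 for Atf6, from -0.13 to 0.22 for Ern1 and from -0.20 to 0.09 for Eif2ak3. Atf4 was at 149.8, 165 and 169.9 CPM in KO, against 163, 170.0 and 166 CPM in WT, and only KO animal 1 lay outside the WT range (interval -0.17 to 0.09, adjusted p = 0.741).

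ER-associated degradation, which extracts misfolded proteins from the ER for the proteasome, is the other group of the ATF6 and XBP1 side. Of its 7 genes 0 passed in edgeR, DESeq2 or limma-voom, and 0 were at unadjusted p below 0.05 in edgeR. Their summed level was 399, 396 and 403 CPM in KO animals 1, 2 and 3, against 409, 409.7 and 419.8 CPM in WT animals 1, 2 and 3. Herpud1, a membrane scaffold of the degradation complex, had groups apart, with means of 42.5 ± 1.80 CPM in KO and 46.4 ± 1.53 CPM in WT (SD, n = 3 each, adjusted p = 0.304). Sel1l, the adaptor of the ubiquitin ligase, averaged 124 ± 3.58 CPM in KO and 135 ± 10.98 CPM in WT (adjusted p = 0.366). Its partner Syvn1, the ligase HRD1, was at 67.7 ± 3.39 CPM in KO and 67.7 ± 4.19 CPM in WT, with a 95% interval of -0.14 to 0.14 for the log2 fold change.

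The remaining degradation genes overlapped between the groups. Edem1, which recognises trimmed glycoproteins, averaged 32.3 ± 3.42 CPM in KO and 33.2 ± 1.67 CPM in WT (SD, n = 3 each), and Derl1, a channel component, 91.0 ± 1.4003 CPM in KO and 93.4 ± 1.28 CPM in WT. Derl2 was higher by fit, with 39.9 ± 1.41 CPM in KO and 35.5 ± 3.81 CPM in WT (log2 fold change 0.16, SE 0.08, adjusted p = 0.323). As with Dnajb9, WT animal 1 lay with the KO animals, and Derl2 passed without it (log2 fold change 0.26, adjusted p = 0.0328). Without KO animal 2 the log2 fold change of Derl2 was 0.14 (adjusted p = 0.605). Derl3 was close to the filter, at 1.73 ± 0.0820 CPM in KO and 1.86 ± 0.497 CPM in WT.

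The 7 ATF4 targets held 0 calls in edgeR, DESeq2 and limma-voom, with 4 lower and 0 higher at an unadjusted p below 0.05 in edgeR, where 8.99% of all genes tested were lower and 8.57% higher. Their median log2 fold change was -0.12, against -0.15 for the 23 genes of the ATF6 and XBP1 side. Within that side the median was -0.18 for the 16 chaperone genes and -0.04 for the 7 degradation genes. In 3 of the 7 the groups were apart with KO lower, where 12.2% of all genes tested were apart in that direction. Chac1, which degrades glutathione, was at 5.13, 5.16 and 5.81 CPM in KO animals 1, 2 and 3, against 5.96, 7.92 and 7.73 CPM in WT animals 1, 2 and 3. Its fitted difference was as large as that of Pdia4 but less precise (log2 fold change -0.42, SE 0.15, adjusted p = 0.190). Sesn2, a sensor of leucine and an inhibitor of mTORC1, was at 17.9, 16.5 and 17.7 CPM in KO, against 20.2, 20.1 and 20.5 CPM in WT. Ddit4, another mTORC1 inhibitor, was at 108, 110.2 and 115 CPM in KO, against 121, 119.7 and 121 CPM in WT. The 3 WT animals agreed closely in both genes and lay above every KO animal (log2 fold change -0.22, SE 0.08, adjusted p = 0.192 for Sesn2, and -0.12, SE 0.05, adjusted p = 0.254 for Ddit4).

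Neither gene of amino acid synthesis passed the test. Asns, asparagine synthetase, was at 43.7, 47.3 and 44.3 CPM in KO, against 46.4, 51.6 and 57.7 CPM in WT. KO animal 2 lay above WT animal 1 (adjusted p = 0.232, and 0.0272 without WT animal 1). With 1 other animal left out, the adjusted p of Asns reached 0.491. Psat1, an enzyme of serine synthesis, was at 90.8, 93.3 and 86.6 CPM in KO, against 89.9, 92.0 and 94.3 CPM in WT. The genes most tied to prolonged stress overlapped between the groups. Ddit3, which encodes the pro-apoptotic factor CHOP, was at 13.7, 13.7 and 14.8 CPM in KO, against 13.3, 14.5 and 13.0 CPM in WT (95% interval of the log2 fold change -0.16 to 0.26). Trib3, a pseudokinase gene induced by ATF4 and CHOP, was at 1.21, 1.42 and 0.794 CPM in KO, against 1.16, 1.17 and 1.26 CPM in WT, too low for a narrow interval (-0.67 to 0.55).

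**Figure D3:**
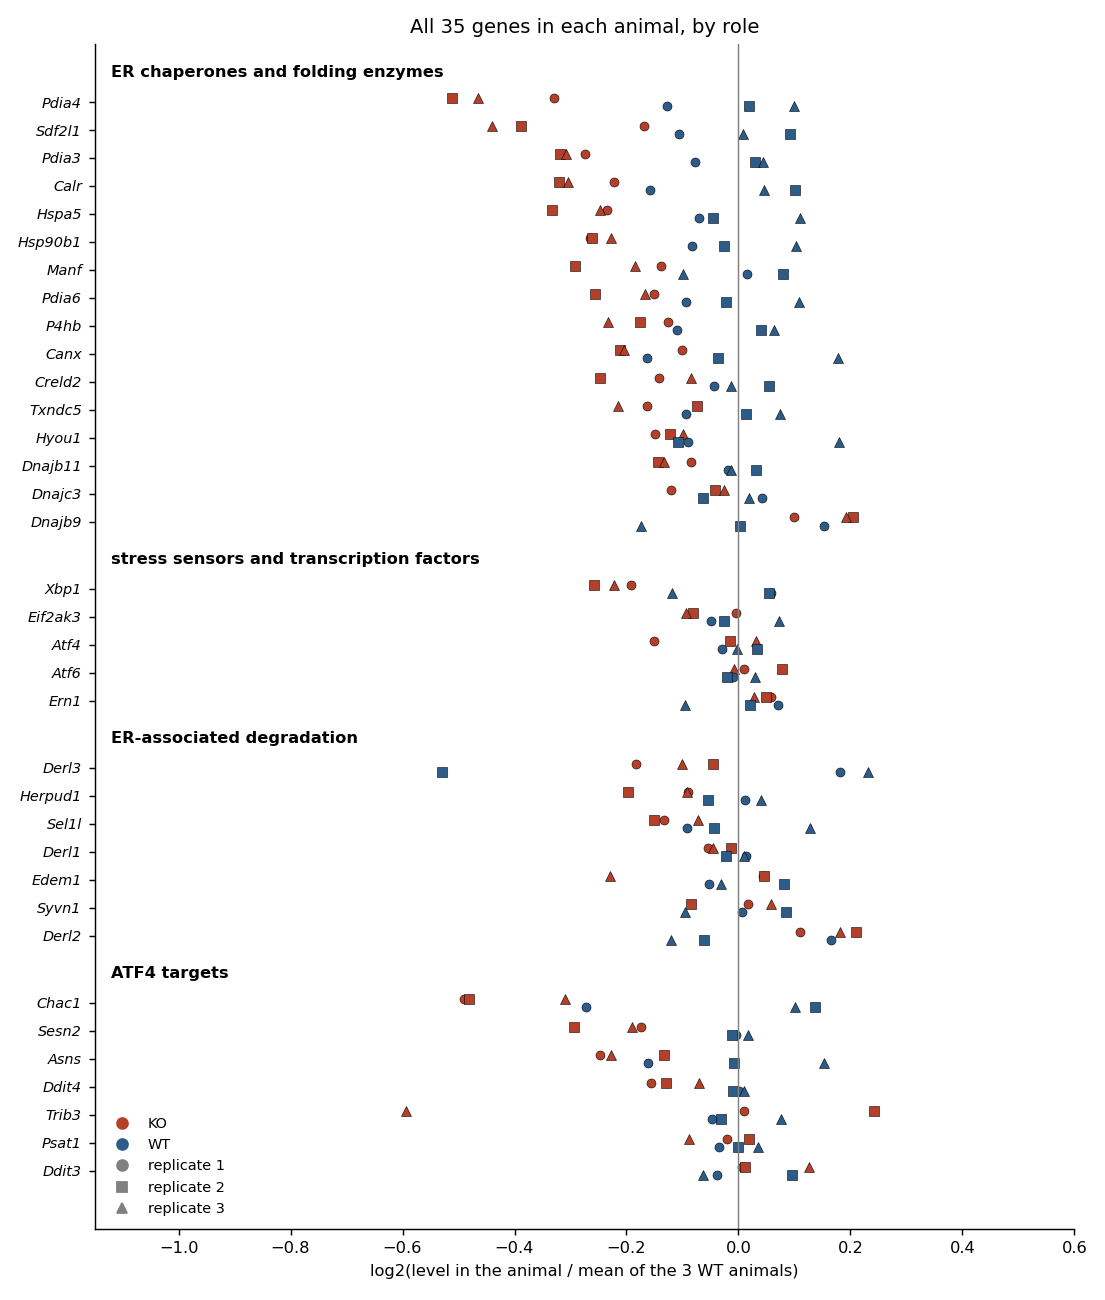
All 35 genes by role, each point 1 animal, as log2 of its CPM over the mean of the 3 WT animals (x axis); KO animals are red and WT animals blue, with symbols for the replicate number. The red points lie left of the blue ones for most chaperones and for Xbp1, Herpud1, Chac1, Sesn2 and Ddit4, and mix with them in most of the rest.

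Across the set, 2 of 35 genes fell and 0 rose. In 16 of the 35 every KO animal lay below every WT animal, and in 0 every KO animal lay above, where 12.2% and 11.5% of all genes tested did. The separation counts were also 16 and 0 with library totals or RLE size factors in place of TMM. KO animal 2 was the lowest of the 6 animals for 13 genes and WT animal 3 the highest for 17, while WT animal 1 was highest for 4 and lowest for 0. The count of calls moved with single animals. Without WT animal 1 the calls were 10 lower (Hspa5, Hsp90b1, Calr, Canx, Pdia3, Pdia4, Pdia6, P4hb, Chac1 and Asns) and 1 higher (Derl2). Leaving out that animal raised the calls over all genes as well, to 962 lower and 959 higher, against 159 and 143 with all animals. The WT animals kept in that fit, 2 and 3, both had a higher GC rho than every KO animal. Without KO animal 2, KO animal 3 or WT animal 2 there were 0 lower and 0 higher calls in the set.

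**Figure D4:**
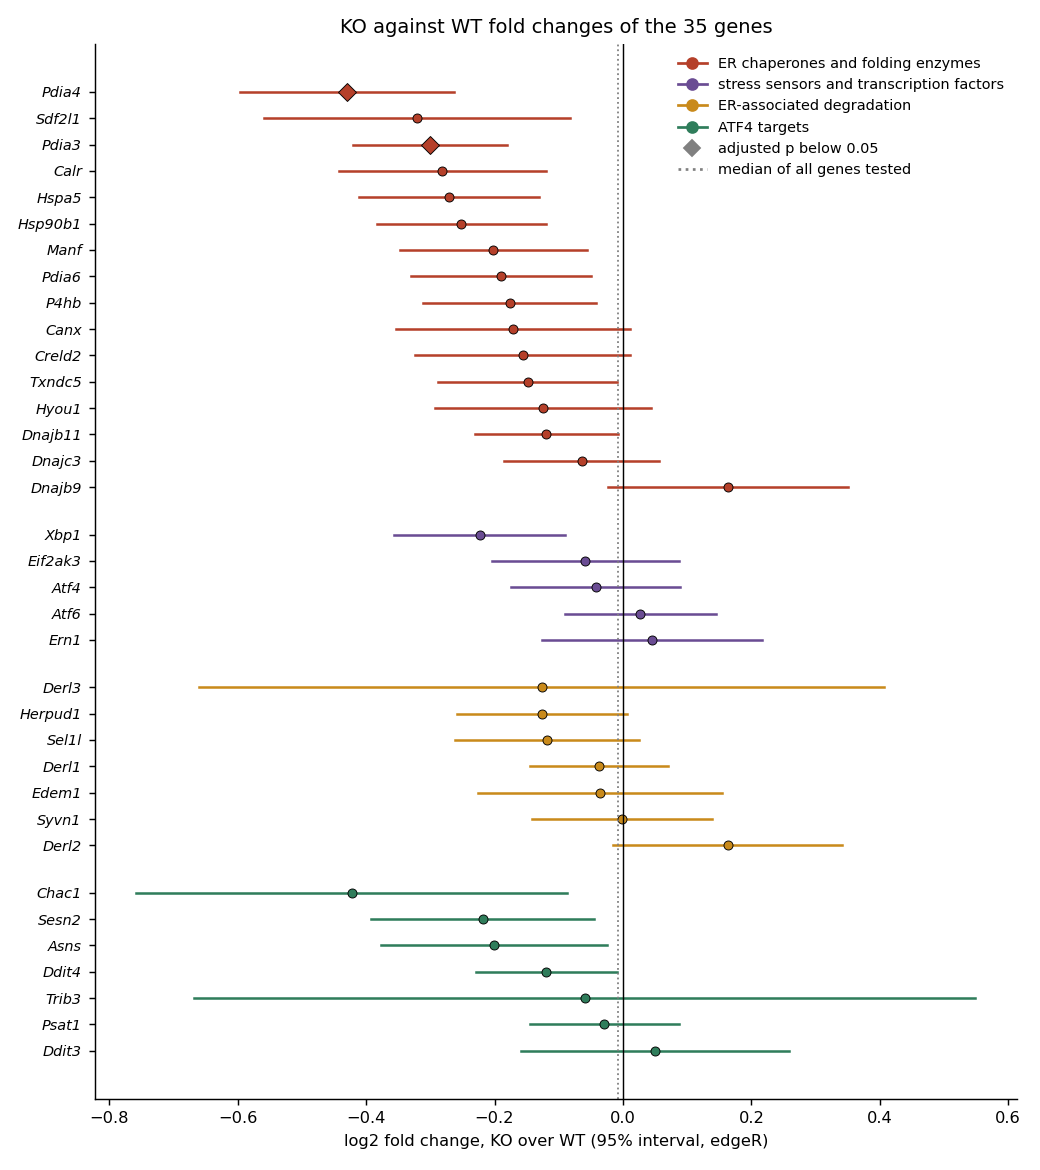
Log2 fold changes of KO over WT (x axis) with 95% intervals from edgeR for the 35 genes, coloured by role; diamonds mark adjusted p below 0.05 and the dotted line the median of all genes tested, -0.01. Pdia4 and Pdia3 carry the diamonds, and Dnajb9, Derl2, Ern1, Atf6 and Ddit3 are the genes with values above 0.

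Compared per length, Calr had the highest level of the set. It averaged 127 CPM per kilobase of exon in KO and 154 in WT, Pdia3 69.2 in KO and 85.3 in WT, and Hspa5 65.2 in KO and 78.7 in WT. Atf4 was close to these at 68.5 CPM per kilobase in KO and 70.5 in WT, and Ddit4 at 63.3 in KO and 68.7 in WT. The sensors were among the scarcest, with Eif2ak3 at 5.41 CPM per kilobase in KO and 5.64 in WT and Ern1 at 2.67 in KO and 2.59 in WT. By these means Atf4 ranked above Hspa5 in KO and below it in WT. The genes with an exact ERSE had log2 fold changes from -0.28 to -0.0011 (9 of 9 below 0, 0 called). The other 11 genes of the ATF6 and XBP1 side with a promoter entry ran from -0.43 to 0.16 (9 below 0, 2 called), so the ranges overlapped. Of all genes tested, 51.5% were below 0. The value of -0.0011 was that of Syvn1, whose sign changed with the settings (0.000276 in DESeq2).

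A further 7 lists covered the rest of the pathway, and all of them held 0 calls in edgeR in either direction. In the 29 other folding enzymes and BiP cofactors, 3 genes were higher and 4 lower at unadjusted p below 0.05 and the median log2 fold change was -0.06. Over all genes tested, 8.57% were higher and 8.99% lower at that threshold. Tmx1, a membrane-bound thioredoxin gene of the ER, was at 59.5, 59.5 and 57.7 CPM in KO, against 47.4, 47.3 and 53.2 CPM in WT (log2 fold change 0.26, SE 0.06, adjusted p = 0.0717). It was called without WT animal 3 (adjusted p = 0.0196), without WT animal 1 (0.0468) and with library totals (0.0495). Clgn, a calnexin relative known from testis, was at 21.1, 19.9 and 19.8 CPM in KO, against 14.7, 16.2 and 17.5 CPM in WT (adjusted p = 0.106). Both had every KO animal above every WT animal, as 0 of the 16 chaperones above had. In the list of 29 as a whole, groups were apart upwards in 3 genes and downwards in 5. Over all genes tested those shares were 11.5% and 12.2%.

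In ER-to-Golgi transport, 17 of 20 genes were below 0, against 51.5% of all genes tested, and the median was -0.11. At unadjusted p below 0.05, 1 was higher and 4 lower, where 8.57% of all genes tested were higher and 8.99% lower. Sar1b, a GTPase of COPII vesicles, was at 73.0, 78.2 and 75.4 CPM in KO, against 66.8, 67.2 and 63.7 CPM in WT (adjusted p = 0.105). Sec24d, a cargo adaptor of the same coat, was at 13.5, 14.3 and 13.5 CPM in KO, against 15.3, 18.7 and 19.3 CPM in WT (adjusted p = 0.116). These coat genes thus had separated groups in opposite directions. Of the 20 transport genes, 1 was separated upwards and 7 downwards, against 11.5% and 12.2% of all genes tested. The 18 other degradation genes had a median of -0.02 with 0 higher and 3 lower at unadjusted p below 0.05. These were led by the ATPase gene Vcp (adjusted p = 0.154) and its cofactor Nploc4 (0.177). Of the 18, 1 was separated upwards and 6 downwards, against the same 11.5% and 12.2%. The 24 translocon and N-glycosylation genes had a median of -0.05 with 0 at unadjusted p below 0.05. The smallest adjusted p values among them were 0.289 for Srpr and 0.333 for Rpn2. Of the 24, 0 were separated upwards and 4 downwards.

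On the ATF4 side, all 6 genes for eIF2alpha, its other kinases and its phosphatase subunits were below 0, against 51.5% of all genes tested. Their median was -0.13. At unadjusted p below 0.05, 2 were lower, the kinases Eif2ak1 (adjusted p = 0.249) and Eif2ak4 (0.269). At that threshold 8.57% of all genes tested were higher and 8.99% lower. Of 32 other ATF4-linked genes 30 were tested, Fgf21 and Gdf15 having 0 to 3 counts per library. Their median was -0.10, with 0 higher and 5 lower at unadjusted p below 0.05, led by the glycine transporter Slc6a9 (adjusted p = 0.217) and the seryl-tRNA synthetase Sars (0.223). Chaperones outside the ER were listed apart. The 20 cytosolic and mitochondrial heat shock genes had a median of -0.11, with 1 higher and 5 lower at unadjusted p below 0.05. Of these 20, 15 were below 0. Their groups were apart downwards in 8 and upwards in 0, where 12.2% and 11.5% of all genes tested were. Separation was downwards in 3 and upwards in 0 of the 6 eIF2alpha genes, and 4 and 2 of the 30 ATF4-linked genes. Dnajb1, a cytosolic J-domain gene, was at 34.0, 35.2 and 37.1 CPM in KO, against 39.2, 45.3 and 47.7 CPM in WT (log2 fold change -0.31, SE 0.08, adjusted p = 0.0865, and 0.0487 in DESeq2). Hspd1, the mitochondrial Hsp60, was at 166, 169 and 170.2 CPM in KO, against 186, 191 and 194 CPM in WT (adjusted p = 0.109).

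**Figure D5:**
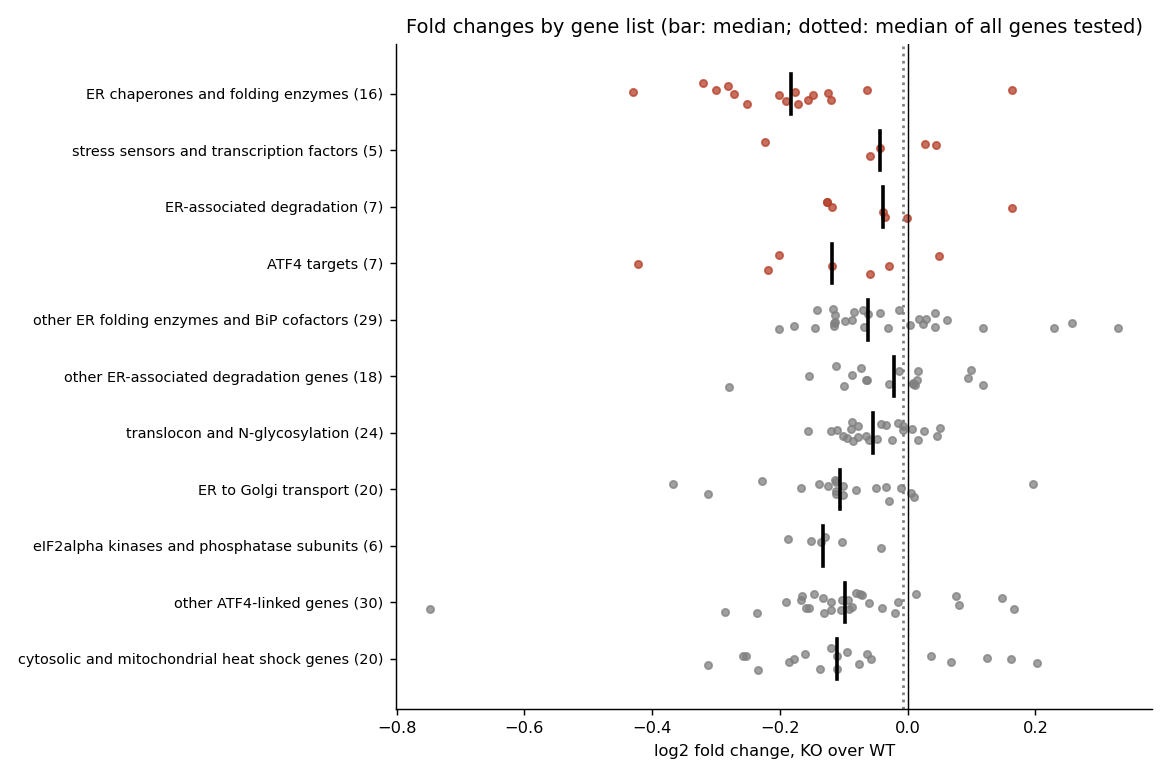
Log2 fold changes of KO over WT (x axis) for each tested gene in the 4 role groups (red) and the 7 further pathway lists (grey), with list sizes in parentheses, black bars for medians and a dotted line for the median of all genes tested. The medians run from -0.18 for the chaperones to -0.02 for the other degradation genes.

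Markers of other cells were set beside these values. The 13 choroid plexus markers, a secretory epithelium, summed to 242, 538 and 803 CPM in KO animals 1, 2 and 3, against 1638, 2563 and 2939 CPM in WT animals 1, 2 and 3, with 9 of 13 called lower, 0 higher and 0 at a count of 0 in any library. Without KO animal 2 or WT animal 2, 1 of the 13 was called lower, and with any other animal left out 7 to 11 were, while their median log2 fold change stayed between -2.58 and -1.73. Among the KO animals the order was not that of the chaperones: KO animal 1 had the lowest choroid plexus sum and the highest chaperone sum, 2083 CPM. Among the WT animals the order was the same for both sums. Purkinje cell markers summed to 5386 to 5612 CPM in KO and 4459 to 4819 CPM in WT, with 2 of 7 called higher (5 without WT animal 1, 1 without WT animal 2 and 0 without any 1 of the KO animals), and oligodendrocyte markers to 12316 to 12914 CPM in KO and 11193 to 11365 CPM in WT, with 0 of 5 called. Immediate early genes, with 0 of 6 called, summed to 51.4 to 124 CPM in KO and 87.7 to 129.7 CPM in WT. The sums of granule cell, meningeal fibroblast, endothelial, astrocyte and Bergmann glia, microglia and red blood cell markers overlapped between the groups, with 1 red blood cell marker called lower and 0 other calls. Which part these differences in cell markers have in the levels of the chaperone genes was not tested.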

How the data were processed

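Counts of reads per gene were deposited by the authors, 1 table per library, made with STAR 2.7.5a on mm10/GRCm38, per the submitters' processing notes, which also name edgeR 3.12. The sources used here do not give the counting options. The column counted without strand was used, since both strand columns held equal shares (49.9% to 50.0% in the first), so reads of a gene and of its antisense partner cannot be told apart. Reads in exons shared with another gene may be lost from Hsp90b1, Txndc5, Manf, Eif2ak3, Syvn1, Derl2 and Ddit3, which share 91 to 485 exon bases with a neighbour. Lines for unmapped, multimapping (3.72% to 4.29%), unassigned and ambiguous reads were left out of library sizes. The labels name no molecular identifiers, and PCR copies may be among the reads.

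Groups came from the strain label, and replicates were numbered by accession as names only. Symbols, positions and exon lengths came from GENCODE release 21 (GRCm38), which matched 55141 of 55487 identifiers (99.4%). A second Ddit3 identifier held 0 counts. Genes were tested with edgeR 4.0.16 in R 4.3.3 (TMM, default filter with minimum count 10 and minimum total 15, quasi-likelihood F test, two-sided, adjusted p below 0.05). SEs and 95% intervals were derived from the F statistics (6.36 prior degrees of freedom; biological coefficient of variation 8.52%). DESeq2 1.42.0, limma-voom (limma 3.58.1), other scalings, other filters and leaving out each animal were the alternatives. The fits were tested on data simulated from the means, dispersions and library sizes of these libraries, with 50 genes changed at each of 4 sizes. Of each 50, edgeR recovered 12 at 1.25-fold, 29 at 1.5-fold, 43 at 2-fold and 50 at 4-fold, with 13 false calls. Most genes changed 1.25-fold were thus missed, so a gene that did not pass here may still differ by such an amount.

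The 35 genes and all lists were chosen with earlier results of these data known, so no p-value was adjusted over a list. All 35 genes are described. Values per animal are given for called genes, for the 12 genes with the smallest p outside the ATF4 targets, for those targets and for the sensors and transcription factors. Of each further list the called genes, or else the 2 with the smallest p, are named. No label is named as a batch, and no fit had a batch term.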

Additional observations from a re-analysis of the deposited data

How the results depend on the processing

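With 3 animals per group the calls depended on the choices below. Over all genes, 143 higher and 159 lower calls became 290 and 272 in DESeq2 and 803 and 820 with no filter on low counts, and ranged from 28 to 959 and from 53 to 962 when 1 animal was left out. In the set, 2 lower calls became 5 in DESeq2 and 6 with no filter on low counts, and ranged from 0 to 10 with 1 animal left out, while 0 higher calls ranged from 0 to 1. In the further lists, 0 lower calls became 1 in DESeq2 and 5 with no filter, with a range of 0 to 11, and 0 higher calls became 1 with library totals and 3 with no filter, with a range of 0 to 4. The medians of the ATF6 and XBP1 side and of the ATF4 targets ranged from -0.18 to -0.11 and from -0.18 to -0.10 with 1 animal left out. The cause was not tested for any of these shifts. Of the 35 fold changes, 4 near 0 changed sign. Syvn1 was at 0.000325 with RLE size factors, 0.0145 with library totals, 0.000276 in DESeq2, 0.000160 in limma-voom and 0.00722 with a minimum mean of 1 CPM. With 1 animal left out Syvn1 ranged from -0.043 to 0.045, Atf4 from -0.081 to 0.0092, Edem1 from -0.081 to 0.046 and Trib3 from -0.23 to 0.12. The other settings changed no direction in the remaining 31 genes. No paired analysis was possible because no replicate number in the labels ties a KO animal to a WT animal. Depth limits the precision for the genes near 1 CPM, Trib3 and Derl3.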
